A study of Mus musculus with 10 samples.

Results

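Immediate early genes were examined in 10 spontaneous mouse lymphomas: Fos, Fosb, Jun, Junb, Atf3, Egr1, Egr2, Nr4a1, Ier2 and Dusp1. They were chosen by name, as all non-control probes whose gene name in the scanner files was one of these 10 symbols. The 10 genes had 12 probes among 41174 non-control probes, and were 10 of 27718 named genes and transcripts on the array. All 10 passed the filter on dim probes, and 17768 genes were tested.

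Immediate early genes are transcribed within minutes of a stimulus, because the factors that switch them on (serum response factor with its ETS partners, CREB) are already present and only need to be phosphorylated by MAP kinases or protein kinase A. Their messages are short-lived, so that a level shows the recent past of a cell, and both antigen receptor signalling in lymphocytes and the handling of tissue between death and freezing are known to induce them. Most encode transcription factors that carry the signal forward, and some, such as Dusp1, encode inhibitors that end it.

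The arrays allow a comparison of these genes between genotypes and a description of how they varied together from tumour to tumour.

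The tumours came from 5 C/EBPβ LIP heterozygous (+/L) and 5 wild type (+/+) mice that were killed once a lymphoma could be felt, and the labels name no treatment for either group. C/EBPβ is a leucine zipper transcription factor, and LIP is its short isoform, which lacks the activation domain. The mice were 11 to 29 months old, and the +/L mice were younger (18.0 ± 4.06 against 24.9 ± 3.47 months, SD, n = 5 each; exact two-sided permutation test, p = 0.032). By label, 1 of the +/L and 2 of the +/+ mice were male. The lymphomas arose spontaneously and differed in their B- and T-cell transcripts, which limits each group as a model. Relative log2 levels of the B-cell gene Cd79a ran from -1.52 in +/L mouse 866 to 1.55 in +/L mouse 20, and those of the T-cell gene Cd3e from -1.24 in +/L mouse 20 to 1.82 in +/+ mouse 19. Both genes were measured in every tumour, so each held transcripts of B and T cells.

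Each tumour was hybridised to 1 single-colour array. A level here is the log2 of the processed signal relative to the 75th percentile of that array, so 1 unit is a doubling. That percentile was higher in the +/L arrays (434 ± 129 against 288 ± 61.1 intensity units, SD, n = 5 each; exact two-sided permutation test, p = 0.032), and 48.0% to 66.7% of non-control spots were well above background. The description labels and the files give different slides for +/L mouse 866 and +/+ mouse 17. Xist was high (2.17 and 3.44) in mice 20 and 11, which are labelled male, against -5.45 in the male mouse 101. Of 7 Y-linked probes, 1 was well above background in mouse 20, 0 in mouse 11 and 3 in mouse 101. Results are therefore also given without mice 866 and 17, and without mice 20 and 11. Mouse numbers are separate, so the tumours were taken as separate animals, and p-values measure the spread between these 10 tumours. The number of arrays limits the precision.

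For the 4 genes in the closest pairs across tumours, the 250 bases upstream of the transcription start are shown, from RefSeq on GRCm38.p6, 5′ to 3′ on the strand of the gene. Capitals mark TGACGT in either orientation, the core of the cyclic AMP response element bound by CREB and ATF proteins, and in Egr2 also a CArG box, the site of serum response factor. Fos lies at chr12:85473640-85473889 (+), Dusp1 at chr17:26508473-26508722 (-), Junb at chr8:84978749-84978998 (-) and Egr2, at the middle one of its 5 listed starts, at chr10:67537619-67537868 (+).
Fos: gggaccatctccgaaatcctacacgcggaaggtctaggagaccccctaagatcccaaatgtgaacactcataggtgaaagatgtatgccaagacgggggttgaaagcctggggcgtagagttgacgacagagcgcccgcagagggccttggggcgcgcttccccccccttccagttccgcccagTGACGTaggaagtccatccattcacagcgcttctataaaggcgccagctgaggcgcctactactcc
Dusp1: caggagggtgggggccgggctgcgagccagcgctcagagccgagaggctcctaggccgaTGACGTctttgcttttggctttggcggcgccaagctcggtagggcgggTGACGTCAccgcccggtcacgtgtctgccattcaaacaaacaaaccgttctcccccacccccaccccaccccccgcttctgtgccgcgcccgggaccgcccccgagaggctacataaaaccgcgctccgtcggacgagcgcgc
Junb: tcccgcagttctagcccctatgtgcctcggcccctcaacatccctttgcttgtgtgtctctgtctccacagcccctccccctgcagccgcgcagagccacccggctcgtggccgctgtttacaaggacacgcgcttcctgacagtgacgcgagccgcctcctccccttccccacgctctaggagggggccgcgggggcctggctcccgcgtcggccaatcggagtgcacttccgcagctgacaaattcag
Egr2: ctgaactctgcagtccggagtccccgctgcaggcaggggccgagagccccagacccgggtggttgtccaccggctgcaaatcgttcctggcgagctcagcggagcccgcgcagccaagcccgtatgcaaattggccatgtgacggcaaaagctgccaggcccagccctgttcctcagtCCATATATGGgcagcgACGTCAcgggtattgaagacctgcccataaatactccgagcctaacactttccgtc
The Fos window holds TGACGT at 66 to 61 bases before the start, and the Dusp1 window holds it at 191 to 186 and, as a palindrome that matches on both strands, at 143 to 136. In Egr2 it lies at 56 to 51, next to the CArG box at 72 to 63. Junb has neither in this window.

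Promoters of 8 members were listed and searched on both strands, leaving out Egr1 and Ier2. Only the 250 bases upstream of a start were searched, so a site farther away would be missed. A member was counted if any of its listed starts held the motif, whereas the shares of all promoters are per start. Egr2 had 5 listed starts and each other listed member 1, so for Egr2 the units differ. TGACGT was found in 4 of the 8 (Fos, Egr2, Dusp1 and Atf3), against 6.47% of 32851 promoters of the same length. A CArG box was found in 1 of 8 (Egr2), against 1.47%. GCGNGGGCG, the site of EGR proteins, was found in 2 of 8 (Fosb and Nr4a1), against 4.7%. Neither the AP-1 site TGANTCA nor the C/EBP half-site TTGCNNAA was found in any of the 8, against 6.75% and 9.56% of all promoters. The members that share TGACGT fell on both sides of the grouping described below: Fos, Dusp1 and Atf3 on one, Egr2 on the other.

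Between genotypes, no member passed the threshold of adjusted p under 0.05 (limma, Benjamini-Hochberg over 17768 genes), and neither did any other gene: the share of all genes called was 0%. All members but Jun had a lower mean in the +/L tumours (9 of 10), against 51.9% of all genes tested. The median difference over the members was -0.63 (+/L minus +/+), against -0.02 over all genes. One member, Junb, had an unadjusted p under 0.05 and was lower in +/L, against 5.44% of all genes called in that direction and 8.57% in either. In 0 of 10 members were the groups of 5 without overlap, against 1.8% of all genes. The members are not independent of each other, since several varied together, and the count of 9 was not tested. In bulk tumours, fewer cells of a type and less RNA per cell cannot be told apart.

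Fos, which pairs with Jun proteins to form the AP-1 transcription factor, was measured by 10 spots of 1 probe (mm9 chr12:86817900-86817959, + strand). Its levels were -0.56, -1.92, -3.03, -2.40 and -3.07 in +/L mice 20, 866, 688, 23 and 517, and 0.16, -1.65, -1.74, -0.68 and -2.16 in +/+ mice 40, 11, 101, 17 and 19. The groups overlapped: +/L mouse 20 was above all +/+ tumours but mouse 40, while +/L mice 688, 23 and 517 were below every +/+ tumour. The means were -2.20 ± 1.03 and -1.21 ± 0.94 (SD, n = 5), a difference of -0.98 ± 0.57 (SE), with an adjusted p of 0.65 by limma and p = 0.15 by the exact two-sided permutation test. The range over tumours was 9.40-fold, and the SD between the spots of an array was 0.09 in the median, far below the spread between tumours. The difference was -0.46 in the deposited values, -0.64 without mouse 40 and -1.50 without mice 20 and 11.

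Fosb, a Fos relative, was dim (mm9 chr7:19888477-19888536, - strand) and was well above background on 9 of 10 arrays, +/L mouse 23 being the exception. In mice 20, 866, 688, 23 and 517 it stood at -3.10, -4.37, -3.87, -4.33 and -4.55, and in mice 40, 11, 101, 17 and 19 at -3.73, -4.29, -2.93, -3.53 and -3.39. Mouse 101 (+/+) and mouse 20 (+/L) were highest. The difference was -0.47 ± 0.33 (SE; limma adjusted p = 0.71; exact permutation p = 0.21). It was -0.84 with quantile normalization and -0.19 in the deposited values.

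Jun, the Fos partner and a target of the JNK kinases, was the one member with a higher mean in +/L (10 spots; mm9 chr4:94715864-94715923, - strand). Its levels in the +/L mice, in the same order, were 0.69, 1.11, 0.05, 0.03 and -0.22, and in the +/+ mice 0.51, -0.19, 0.10, 0.63 and 0.11. In each genotype a pair of tumours stood above the other 3: mice 20 and 866 among +/L, mice 40 and 17 among +/+. The difference of 0.10 ± 0.29 (SE; limma adjusted p = 0.94; exact permutation p = 0.76) was far smaller than this spread. It turned to -0.47 with age as a covariate, and to -0.10 without mice 20 and 11.

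Junb, an AP-1 subunit that can also oppose Jun, had a pair of overlapping probes (mm9 chr8:87500881-87500940 and chr8:87500843-87500902, - strand). The brighter one stood at 4.43, 5.81, 5.54, 5.72 and 5.40 in the +/L mice and 6.08, 5.87, 6.36, 5.64 and 6.12 in the +/+ mice. Every +/L tumour lay below the +/+ median of 6.08, +/+ mouse 17 lay inside the +/L range, and +/L mouse 20 lay far below all others. The difference was -0.64 ± 0.28 (SE; 1.55-fold), with an interval of -1.26 to -0.01 (95%, limma), an adjusted p of 0.57 and p = 0.032 by the exact two-sided permutation test, where 0.0079 is the smallest p possible. The other probe gave -0.64 as well (exact permutation p = 0.063), and the probes correlated at r = 0.99 over the 10 tumours. Within the slides of the file headers the difference was -0.88, -0.43 and -0.31, and without mice 20 and 11 it was -0.43. It was -0.35 with quantile normalization and -0.33 in the deposited values.

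Atf3, a stress-induced member of the ATF/CREB family that represses or activates with Jun, ranged 8.02-fold over the tumours (mm9 chr1:192994547-192994606, - strand). The +/L mice gave 0.90, 1.61, -1.09, -0.36 and -1.35, and the +/+ mice 1.65, -0.14, -0.97, 1.25 and -0.57. High tumours (20, 866, 40, 17) and low ones occurred in both genotypes, as for Jun. The difference was -0.30 ± 0.69 (SE; limma adjusted p = 0.92; exact permutation p = 0.66).

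Egr1, a zinc finger factor induced by ERK signalling, was measured at mm9 chr18:35024395-35024454 (+ strand). Its levels were 1.74, 1.75, 2.69, 2.11 and 2.06 in the +/L mice and 2.36, 3.06, 3.36, 1.88 and 2.95 in the +/+ mice. All 5 +/L tumours lay below the +/+ median of 2.95, but +/+ mice 17 and 40 lay within the +/L range. The difference was -0.65 ± 0.31 (SE; limma adjusted p = 0.59; exact permutation p = 0.071). It shrank to -0.23 with age as a covariate, and Egr1 correlated with age at r = 0.68 over 10 tumours, 0.46 with the genotype means removed.

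Egr2, its relative that restrains T-cell activation downstream of the antigen receptor, had the widest range of the 10, 20.1-fold (10 spots; mm9 chr10:67004758-67004817, + strand). It stood at -0.62, 2.75, 2.11, 2.16 and 1.89 in the +/L mice and at 1.74, 2.21, 3.61, 1.75 and 3.70 in the +/+ mice. Mouse 20 (+/L) was far below the other 9, and +/+ mice 101 and 19 were above every +/L tumour. The difference of -0.95 ± 0.66 (SE; limma adjusted p = 0.71; exact permutation p = 0.25) leaned on mouse 20: it was -0.38 without that mouse and -0.47 without mice 20 and 11.

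Nr4a1, an orphan nuclear receptor induced by antigen receptor signals, was measured at mm9 chr15:101105071-101105130 (+ strand). The +/L mice gave 3.01, 3.76, 3.37, 3.74 and 3.24, and the +/+ mice 5.90, 2.65, 3.65, 4.74 and 3.27. The 5 +/L tumours lay within 1 unit of each other (SD 0.32), whereas the +/+ tumours spread over more than 3 units (SD 1.29) with mice 40 and 17 on top. The difference was -0.62 ± 0.54 (SE; limma adjusted p = 0.77; exact permutation p = 0.38). It was -0.15 without mouse 40 and -1.19 with age as a covariate.

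Ier2, a nuclear protein that takes part in transcription, had a pair of probes that did not give the same picture. The brighter one (mm9 chr8:87185211-87185245 as listed, - strand) gave 2.65, 2.34, 2.87, 2.01 and 3.07 in the +/L mice and 3.13, 2.24, 2.99, 2.59 and 2.74 in the +/+ mice, a difference of -0.15 ± 0.26 (SE; limma adjusted p = 0.90; exact permutation p = 0.54). The dimmer one (mm9 chr8:87183623-87183681, - strand) gave -1.43, -3.10, -2.42, -1.99 and -2.83 against -1.09, -1.84, -0.97, -1.79 and -1.69, a difference of -0.88 ± 0.34 (SE; exact permutation p = 0.056). In the first the genotypes were mixed, while in the second only +/L mouse 20 reached the +/+ range. The probes correlated at r = 0.26, and they match different transcript records, so Ier2 is uncertain here.

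Dusp1, a phosphatase that switches off MAP kinases, was measured by a probe with only 11 bases listed on mm9 (chr17:26642526-26642536, - strand). It stood at 1.22, 0.40, -0.38, -0.23 and -0.08 in the +/L mice and at 2.64, 0.43, 0.60, 0.83 and 0.08 in the +/+ mice. Mouse 40 (+/+) was highest and mouse 20 (+/L) next, and +/L mice 688, 23 and 517 were below every +/+ tumour, as for Fos. The difference was -0.73 ± 0.49 (SE; limma adjusted p = 0.70; exact permutation p = 0.21), and -0.30 without mouse 40.

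**Figure D1:**
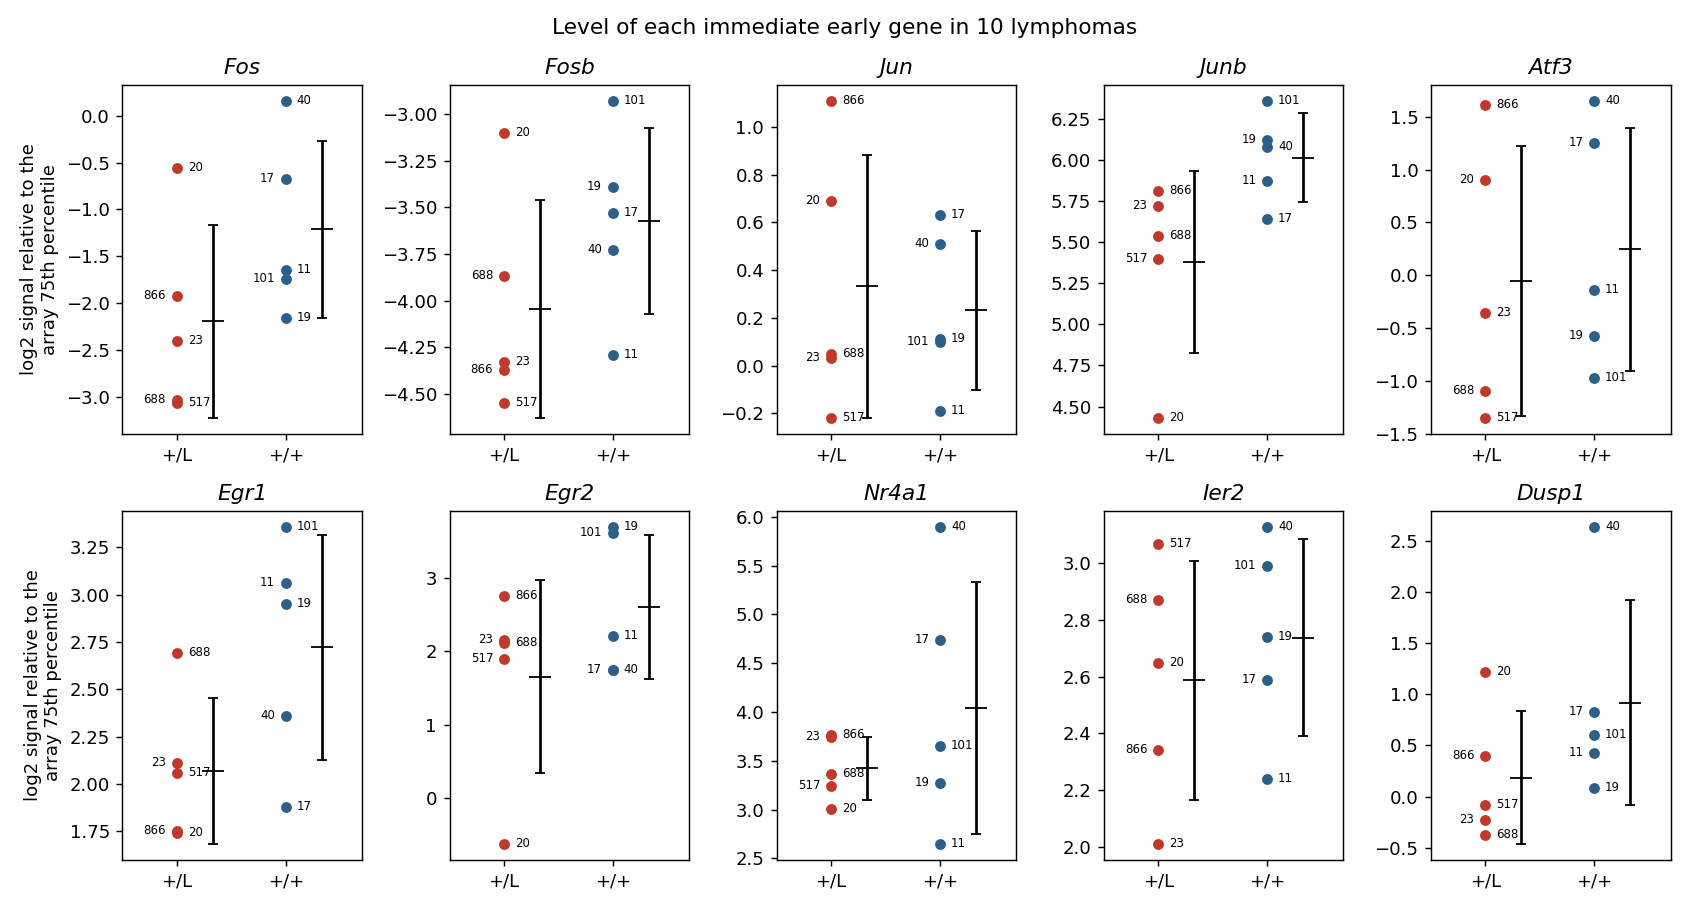
Level of each of the 10 genes (log2 signal relative to the array's 75th percentile, y axis) in 5 +/L (red) and 5 +/+ (blue) tumours, each point labelled with its mouse number; bars show mean ± SD. The genotypes overlap in all 10 panels, mouse 40 is on top for Fos, Atf3, Nr4a1, Ier2 and Dusp1, and mouse 20 is at the bottom for Junb and Egr2 (-0.62).

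The slides of the file headers held 2, 1 and 2 +/L and 2, 2 and 1 +/+ arrays. Within slides, Junb and Egr2 were lower in +/L on all 3, and the other 8 members changed sign on at least 1 slide; Atf3 was -1.55, 2.38 and -0.72. With this slide as a block the median difference of the members was -0.59 and 9 were lower. The sample descriptions place the arrays otherwise, with 3 +/L beside 1 +/+ on slide 36, 2 +/L beside 1 +/+ on slide 37, and only +/+ (3 arrays) on slide 38. A block on those slides gave a median of -0.60 with 9 lower, but -1.57 for Fos, -1.45 for Dusp1, -0.27 for Egr2 and -0.09 for Fosb. Slide 38 adds nothing to this contrast, so its +/+ side rests on mice 40 and 11 alone. Mouse 40 was the highest tumour for Fos and Dusp1. Without mice 866 and 17 the median was -0.66 with 9 lower, with these arrays exchanged between genotypes -0.47 with 10 lower, without mice 20 and 11 -0.56 with 10 lower, and with age as a covariate -0.74 with 10 lower. No member passed the threshold in any of these fits.

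**Figure D2:**
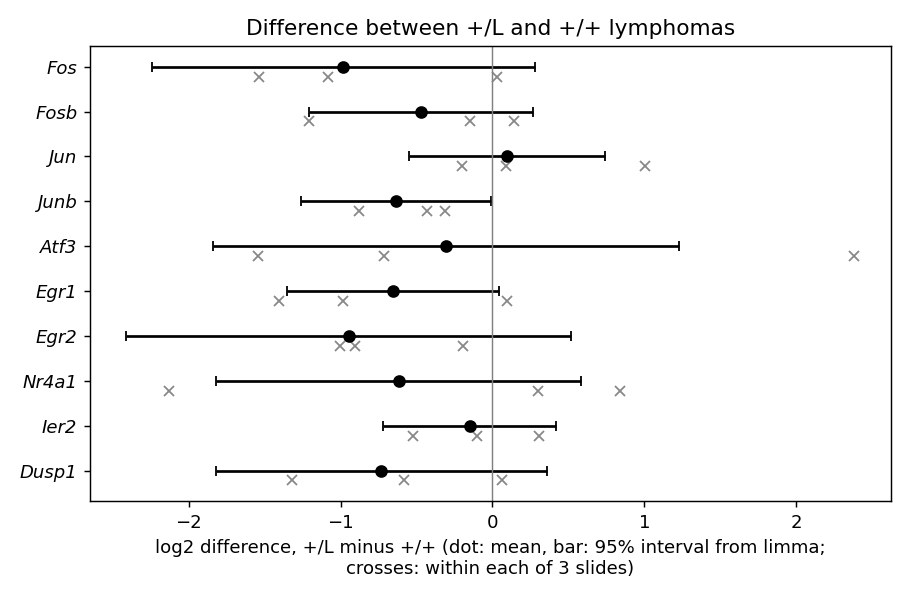
Difference between genotypes for each gene (+/L minus +/+, log2, x axis): dots are means, bars are 95% intervals from limma and crosses are the differences within each of the 3 slides. Every interval but that of Junb (-1.26 to -0.01) includes 0, and no adjusted p is below 0.57.

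Across the 10 tumours, the members did not vary as 1 group. The median Pearson r over the 45 pairs was 0.12, against 0.003 over all pairs of genes. In 6 pairs (13.3%) r was at least 0.7, against 4.22% of all gene pairs, and in 17 pairs (37.8%) it was below 0, against 49.7%. The median r was 0.22 without mice 866 and 17 and 0.29 without mice 20 and 11. It was 0.02 with the genotype means removed and 0.06 with quantile normalization. These correlations are descriptions over tumours that share the scaling of their arrays, and no p is attached to them.

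Read off after the values were seen, the genes fell into a set of 5 around Fos and a set of 3 around Egr2. Fos, Dusp1, Atf3, Jun and Nr4a1 correlated with each other at r of 0.41 to 0.92 (median 0.66 over 10 pairs). Within it, the correlations of Nr4a1 with Fos (0.61), Dusp1 (0.71) and Atf3 (0.59) leaned on mouse 40, without which they were 0.25, 0.12 and 0.40. That of Nr4a1 with Jun (0.41) did not, and was 0.45 without this mouse. Without mice 40 and 17, the farthest from the Nr4a1 median, Nr4a1 gave -0.31 with Fos, -0.31 with Dusp1, 0.06 with Atf3 and 0.35 with Jun. Junb, Egr2 and Egr1 correlated at 0.64 to 0.90 (median 0.65 over 3 pairs). Of these, Junb and Egr1 depended on the scaling: their r of 0.65 was 0.30 with quantile normalization, 0.25 with normexp, 0.20 in the deposited values and 0.44 with the genotype means removed. Between the sets, 13 of 15 correlations were below 0, from -0.62 for Jun and Egr1 to 0.32 for Junb and Nr4a1. Several of these leaned on mouse 20. Without it Junb gave positive values with Fos (0.47), Dusp1 (0.45), Nr4a1 (0.19), Atf3 (0.14) and Jun (0.12), and Fos and Egr2 went from -0.42 to -0.21. With the genotype means removed, most values between the sets were lower. Fos then gave -0.78 with Egr2, -0.71 with Egr1 and -0.58 with Junb. Jun moved slightly the other way, from -0.22 to -0.19 with Junb and from -0.28 to -0.25 with Egr2. Mouse 20 had the lowest Junb, Egr2 and Egr1 of the 10 tumours and the second highest Fos and Dusp1. Fosb had no settled place: its highest r was with Fos (0.47), but with quantile normalization that value was 0.16 and Fosb gave 0.72 with Egr1, 0.63 with Egr2 and 0.46 with Junb. The deposited values gave 0.22 with Fos, 0.60 with Egr1, 0.53 with Egr2 and 0.45 with Junb. The highest r of Ier2 was with Fosb (0.38).

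Fos and Dusp1 were the closest pair, with r = 0.92 and Spearman's rho = 0.95 over 10 tumours. Without the 2 tumours farthest from the Fos median (mice 40 and 20) r was 0.91, and leaving out any 1 tumour gave 0.91 to 0.95. It was 0.90 with the genotype means removed, 0.89 with the slide means removed and 0.91 with age regressed out. Only 0.12% of all gene pairs reached this r. Leaving out mice 866 and 17 gave 0.95, and leaving out mice 20 and 11 gave 0.93.

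Junb and Egr2 came next, with r = 0.90 and rho = 0.68, but this pair leaned on mouse 20. Its r was 0.70 without that mouse, 0.71 without mice 20 and 11, 0.91 without mice 866 and 17, and 0.97 without mouse 40. Jun and Atf3 gave r = 0.86 (rho = 0.72; 0.83 to 0.91 on leaving out 1 tumour), Fos and Atf3 0.80 (rho = 0.79; 0.73 to 0.94), and Dusp1 and Atf3 0.71 (rho = 0.70). For Dusp1 and Nr4a1, r was also 0.71, yet rho was 0.24 and r was 0.12 without mouse 40: this relation rests on 1 tumour.

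**Figure D3:**
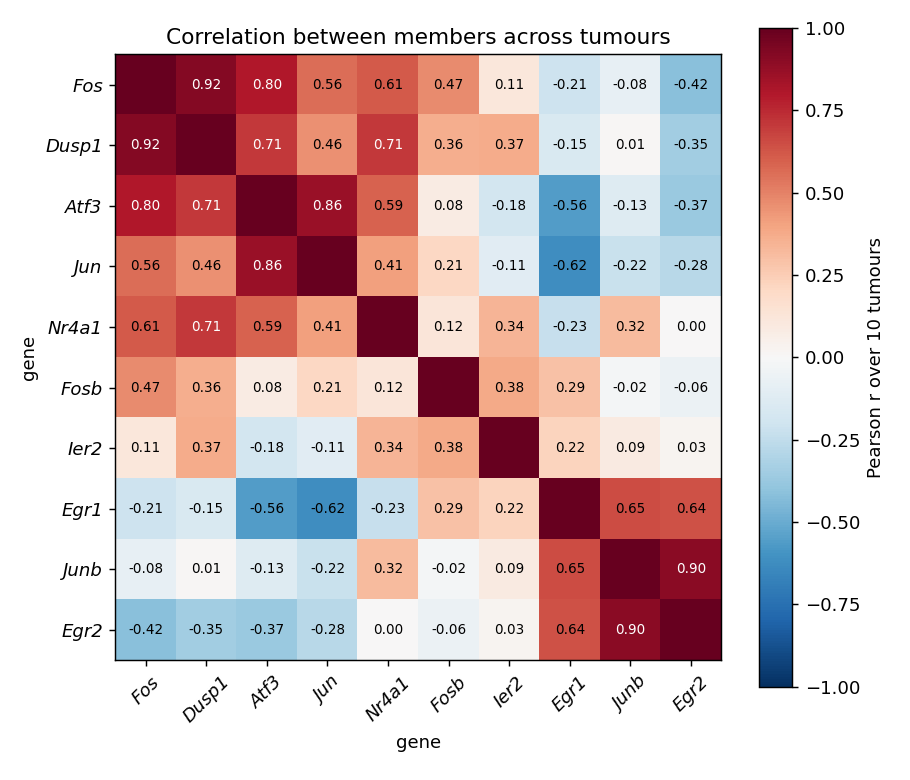
Pearson r between each pair of the 10 genes over 10 tumours (colour scale from -1 to 1, values printed). The block of Fos, Dusp1, Atf3, Jun and Nr4a1 at the upper left (0.41 to 0.92) and that of Egr1, Junb and Egr2 at the lower right (0.64 to 0.90) are joined by mostly negative values, several of which lean on mouse 20.

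A fit of every gene on the level of each member in turn (limma, adjusted over 17767 genes) called 0 of the 90 ordered pairs of members. The closest was Egr2 on Junb, with a slope of 2.04 and an adjusted p of 0.052. It passed under quantile normalization (adjusted p = 0.04), without mouse 40 (0.035) and without mouse 688 (0.041). At an unadjusted p under 0.05, 21 of 90 ordered pairs (23.3%) were called, against 11% over all genes; the directions of a pair share 1 correlation.

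Egr2 co-varied with 16 genes past the threshold (0.0901% of those tested). The 9 that rose with it included Il21, a cytokine of helper T cells (r = 0.96), Zap70, a kinase of the T-cell receptor (0.96), the co-stimulatory receptors Icos (0.95) and Tnfrsf4 (0.94), the thymocyte factor Tox (0.92) and the prostaglandin receptor Ptger2 (0.97). The others that rose were Pla2g2d, Ccn4 and Tnfsf8, and 7 fell, among them Gpr55 and Spcs3. Without mouse 20, 0 of the 16 passed by limma, though r with Egr2 was still 0.93 for Il21, 0.94 for Ptger2, 0.89 for Zap70 and 0.86 for Icos. Leaving out other tumours gave 1 (mice 40, 23 or 517) to 37 (mouse 11) calls. These genes were chosen after their values were seen.

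The T-cell marker list (Cd3e, Cd3d, Cd3g, Cd8a, Lck and Cd2) moved with Egr2. A list score is the mean of its genes, each centred on its mean over the tumours. Egr2 correlated with it at r = 0.87 (rho = 0.66), which 0.298% of all genes reached; it was 0.74 without mouse 20 and 0.56 without mice 20 and 19. All 6 genes were detected, 5 of 6 had a lower mean in +/L, and the summed level of the list ran from 12.2 to 105 times the array's 75th percentile in +/L and from 30.3 to 149 in +/+. Junb followed the same list at r = 0.73, but at 0.37 without mouse 20. The plasma cell list ran the other way against Egr2 (r = -0.77, and -0.42 without mouse 20), and its summed level was 36.8 to 599 in +/L and 93.9 to 216 in +/+. What part T-cell or plasma cell content has in the Egr2 levels was not tested.

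Junb co-varied with 30 genes past the threshold (0.169%), of which 12 rose and 18 fell with it. Pla2g2d, Tnfrsf4 and the transcript R74862, which fell, were called with both Junb and Egr2. The gene of highest r with Junb was Sting1 (0.96), the sensor of cytosolic nucleotide signals, which did not pass. Leaving out 1 tumour changed the count to 0 for mice 20, 866, 517, 11, 101, 17 and 19, 1 for mouse 23, 10 for mouse 40 and 123 for mouse 688. Junb also followed the list of feedback inhibitors at r = 0.81 (rho = 0.77; 0.80 without mouse 20), which 0.986% of all genes reached.

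Egr1 co-varied past the threshold with no gene (0% called by limma), though 3440 genes had an unadjusted p under 0.05, against 3311 for Junb and 3029 for Egr2. Its level followed the mean of 12 housekeeping genes at r = 0.94 (rho = 0.88), which 0.591% of all genes reached. This held with the genotype means removed (0.92), without mouse 20 (0.95) and without mouse 866 (0.93). The genes most like it were Nol6, which acts in ribosome biogenesis (0.99), and Upf1, the helicase of nonsense-mediated decay (0.98). Egr1 ran opposite to the neutrophil list (r = -0.90; rho = -0.88), whose summed level was 2.76 to 75.3 in +/L and 1.26 to 17.9 in +/+, with 4 of its 5 genes higher in +/L. In +/L, 10 of 12 housekeeping genes also had a lower mean (median -0.31), on the same side as Egr1 (-0.65). With quantile normalization the housekeeping median was -0.11 and the Egr1 difference -0.54, and in the deposited values -0.05 and -0.51. With age as a covariate they were 0.00 and -0.23. The part of either list in the Egr1 difference was not tested.

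Fos co-varied past the threshold with 1 gene (0.00563%), Slamf9, a receptor of the SLAM family (r = 0.97, slope 1.15, limma adjusted p = 0.014), named after its value was seen. That call was lost without mouse 40, 688, 517, 17 or 19, and 14 genes were called without mouse 20. Slamf9 also followed Dusp1 (0.88) and Atf3 (0.75) but not Egr2 (-0.32). For Fosb, Jun, Ier2, Dusp1, Atf3 and Nr4a1 the count was 0 (0%) by limma, with 2527, 1726, 391, 936, 1220 and 1273 genes at an unadjusted p under 0.05. The genes most like Atf3 by r included Anxa1, an anti-inflammatory annexin of myeloid cells (0.95), and Cd300ld (0.96), and those most like Nr4a1 included Abi3 (0.94).

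Jun ran opposite to the B-cell list (Cd79a, Cd79b, Ms4a1, Pax5 and Blk) at r = -0.80 (rho = -0.81), which 0.388% of all genes reached. Without mouse 866, the tumour with the lowest Cd79a, r was -0.62, and without mouse 20 it was -0.89. The summed level of the list was 39.8 to 244 in +/L and 141 to 227 in +/+, with all 5 genes detected and 3 of 5 lower in +/L. Its part in the Jun levels was not tested.

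The mean of the 10 members, each centred, followed macrophage markers (Csf1r, Cd68, C1qa, C1qb, Adgre1 and Lyz2). It ran from -0.56 in +/L mouse 517 to 0.84 in +/+ mouse 40, and correlated with the macrophage score at r = 0.85 and rho = 0.94 over 10 tumours. Without the 2 tumours farthest from the median score (mice 517 and 40) r was 0.92, and with the genotype means removed it was 0.73. No single member came as close in r. Fos gave 0.66, Atf3 0.58, Nr4a1 0.56 and Dusp1 0.56, values reached by 4.71% to 8.48% of all genes. The others gave 0.50 (Junb), 0.46 (Fosb), 0.45 (Jun), 0.25 (Egr1 and Egr2) and -0.09 (Ier2). Junb had the highest rho of the members (0.78, against 0.64 for Fos). Without mouse 20, its r was 0.72 and that of Fos 0.78. With the genotype means removed, r was 0.16 for Junb and 0.52 for Fos. All 6 macrophage genes were detected and had a lower mean in +/L (median -0.97; 0 called by limma, 2 at an unadjusted p under 0.05), and their summed level was 179 to 554 in +/L and 453 to 703 in +/+. The means of these markers were thus on the same side as those of 9 members, and their part in the members' difference was not tested.

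**Figure D4:**
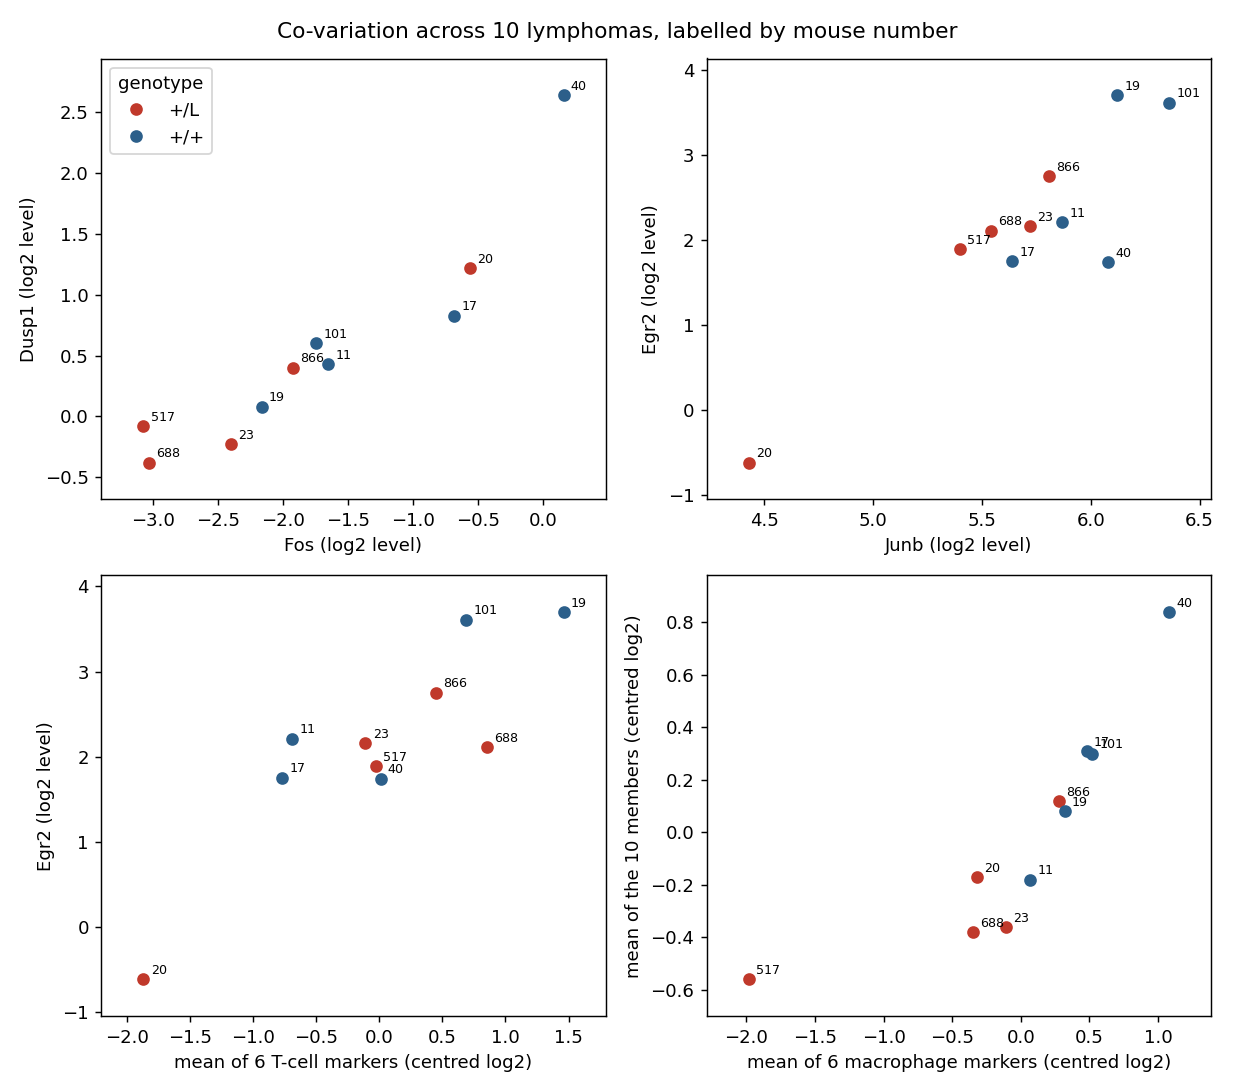
Relations over 10 tumours, red for +/L and blue for +/+, with mouse numbers: Dusp1 against Fos (r = 0.92), Egr2 against Junb (0.90), Egr2 against the mean of 6 T-cell markers (0.87) and the mean of the 10 members against the mean of 6 macrophage markers (0.85), all on log2 scales. Mouse 20 stands alone at the lower left of both Egr2 panels, and mice 40 and 517 mark the ends of the macrophage panel.

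The non-member genes most like the mean of the members were Ifih1, a sensor of viral RNA (r = 0.97), Ppt2 (0.97), Cryzl2 (0.97), Anxa5 (0.96), Soga1 (0.96), Tns3, Cttnbp2nl, Plekho2 and Tifab (0.95 each) and the cholesterol exporter Abcg1 (0.94). All 10 had a lower mean in +/L, with differences from -1.35 to -0.61 and adjusted p of 0.54 to 0.56 by limma. They were picked for following a mean that was itself lower in +/L, so their shared side follows from the choice. The genes of lowest r were Kansl2 (-0.92), Lysmd1 (-0.91), Uhrf1bp1l (-0.91), 2510002D24Rik (-0.90) and Zfp507 (-0.90).

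Measures of stress and of the arrays were set beside the members as well, in 273 relations in all. The members' mean gave r = 0.14 with 12 heat shock genes, 0.21 with 12 hypoxia genes, -0.23 with 12 cell cycle genes and 0.17 with the housekeeping genes. Without mice 11 and 866, the farthest from the median of either stress list, r was 0.45 with heat shock and 0.60 with hypoxia genes. With the genotype means removed, the heat shock and hypoxia values were -0.39 and -0.06. Without their 2 farthest tumours, the cell cycle list gave -0.44 (mice 11 and 101) and the housekeeping list -0.22 (mice 101 and 517). The set around Fos gave -0.08 with heat shock and 0.11 with hypoxia genes (rho 0.08 and 0.49). The set around Egr2 gave 0.41 and 0.34. With the array's 75th percentile the members' mean gave r = -0.42, which was -0.79 without mice 866 and 101, the farthest from the median percentile, and 0.05 with the genotype means removed. With age it gave 0.27, which was 0.77 without mice 866 and 11, the farthest from the median age, and -0.43 with the genotype means removed. Among single members, Egr1 gave r = 0.70 with the heat shock genes, and 0.57 without mice 11 and 866. With the 75th percentile Egr1 gave -0.62, but -0.16 without mice 866 and 101 and -0.37 with the genotype means removed. Jun gave -0.56 with age (rho = -0.24), but 0.17 without mice 866 and 11 and -0.69 with the genotype means removed.

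Of 34 other immediate early genes, 33 were tested, 22 had a lower and 11 a higher mean in +/L. The median was -0.21, but -0.07 with normexp, -0.04 in the deposited values and -0.10 without mouse 517, and its distance from the members' median was not tested. The lowest p-values were those of Maff (-0.72 ± 0.22, SE), a small partner of Fos-like proteins, the lymphocyte quiescence factor Klf2 (-0.97 ± 0.30) and the stress kinase Plk3 (-0.70 ± 0.23), each at an adjusted p of 0.54 by limma. The score of this list correlated with the members' mean at r = 0.78 (rho = 0.64), and with Fos at r = 0.78 (rho = 0.77). Without mice 517 and 40, the farthest from its median, r was 0.43 with the members' mean and 0.53 with Fos. With the genotype means removed, the values were 0.63 and 0.70.

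Of the kinases and factors that switch immediate early genes on, 21 of 22 were tested, 14 were lower and 7 higher. The median was -0.09, and it turned to 0.02 with age as a covariate and to 0.05 without mouse 23. The MAP kinases Mapk14 (p38, -0.60 ± 0.22) and Mapk3 (ERK1, -0.61 ± 0.23) had lower and the serum response factor partner Mrtfb (0.99 ± 0.44) a higher mean in +/L, with adjusted p of 0.55 to 0.58 by limma. Of the feedback inhibitors, 14 of 16 were tested, 11 were lower and 3 higher, and the median was -0.22. Among them Nab2, which binds and represses EGR proteins, differed by -0.94 ± 0.32 (adjusted p = 0.54), and the nuclear MAP kinase phosphatases Dusp2 by -0.71 ± 0.41 and Dusp4 by -0.52 ± 0.30.

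Of 12 heat shock genes 11 were lower (median -0.33; Hspa8 -0.50 ± 0.23, Dnajb1 -0.51 ± 0.27, Hsp90ab1 -0.53 ± 0.31). Of 12 hypoxia genes 9 were lower (median -0.18), with P4ha1 at -0.86 ± 0.35, Hk2 at -0.81 ± 0.37 and the glucose transporter Slc2a1 at -0.75 ± 0.24, whose groups did not overlap. Of 12 cell cycle genes 8 were lower (median -0.09; Bub1 -1.01 ± 0.40, Plk1 -0.30 ± 0.48, Birc5 0.30 ± 0.38), and of 12 housekeeping genes 10 were lower (median -0.31; Gapdh -0.99 ± 0.40, Actb -0.66 ± 0.37, B2m -0.29 ± 0.17). The cell cycle median turned to 0.08 with quantile normalization and in the deposited values, 0.07 with normexp, 0.56 with age as a covariate and 0.17 without mouse 11. The hypoxia median was 0.04 without mouse 11 and -0.64 with the slides of the description labels as a block, and the housekeeping median was -0.05 in the deposited values and 0.00 with age as a covariate. None of the genes in these 7 lists passed the threshold by limma, and the smallest adjusted p was 0.54.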

How the data were processed

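Total RNA of snap-frozen tumour, per the labels' protocols, was labelled with Cy3 and hybridised to 1 array per mouse. Per the file headers, the authors turned each scan into a detrended signal intensity per spot using Agilent's Feature Extraction 10.5.1.1, and the same files carry flags for spots above background and for outliers. A deposited table of log2 values for these arrays was an alternative; its making is not given in the labels used here.

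Each level is the log2 of a spot's processed signal after subtracting that array's 75th percentile over non-control spots, with outlier spots left out and the spots of a probe averaged. A probe was kept where at least 3 of 10 arrays showed it well above background (26410), and 73 with an outlier flag were left out. The brightest probe stood for a gene. Names were brought up to date through RefSeq (25097 probes by accession, 6333 by symbol, 1668 by synonym, 8076 unmatched), leaving 17768 genes, 14802 of them with a current symbol. Coordinates of probes are those of the files (mm9); exon and UTR annotation was not used here.

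Genotypes, and co-variation with each member, were tested with limma 3.58.1 (lmFit and eBayes) in R 4.3.3 with Benjamini-Hochberg adjustment over all genes, and single genes by exact permutation over all 252 splits, two-sided. The members and lists were chosen with earlier results of these data known. Named genes were all members, the 10 genes of highest and 5 of lowest r with their mean, the 3 of lowest p in each pathway list, Cd79a and Cd3e; other names were chosen after their values were seen. A marker of the B-cell list is not reported here and was left out of that list's values. On simulated data with the real spreads of 17768 genes, 200 of them changed, the test between genotypes recovered 17.2%, 58.1% and 81.1% of genes changed by 1, 2 and 3 on the log2 scale (6.15% of calls were false), and the co-variation test 42.8% at r = 0.9 and 71.1% at r = 0.97. Alternatives changed scaling, background correction, filter, probe rule, covariates, slide block and the set of arrays; leaving out or exchanging pairs of mice was chosen after seeing the data.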

Additional observations from a re-analysis of the deposited data

Results flagged for a closer look

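Egr2 in +/L mouse 20 was -0.62, far from the other 4 +/L tumours (1.89 to 2.75). Its gap to the nearest of them, as a share of the range of the 5, was 0.744. The usual limit for 1 stray value among 5 is 0.71. Of 20 groups checked (10 genes in 2 genotypes) this was the 1 above the limit, and chance marks about 1 in 20. Just below it were Junb in +/L (mouse 20, lowest) and Dusp1 in +/+ (mouse 40, highest), each at 0.706. Mouse 20 had the lowest T-cell score (-1.87) and the highest plasma cell score (1.81) of the 10.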

How the results depend on the processing

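No member and no gene of the pathway lists passed the threshold under any of 25 alternatives, and the members' median difference stayed between -0.74 and -0.37 with 8 to 10 members lower in +/L. Over all genes, 1 gene passed with normexp background correction and 1 with the deposited table (both times ENSMUST00000070897, lower in +/L), and 0 to 3 on leaving out 1 tumour; the 3 came without mouse 517 and were that transcript, H60a and Tph1. Ordered pairs of members that co-varied numbered 1 under quantile normalization and 0 to 1 on leaving out 1 tumour, each time Egr2 on Junb. Jun turned to -0.47 with age as a covariate, -0.09 with mice 866 and 17 exchanged, -0.10 without mice 20 and 11, and to -0.10 without mouse 866 and -0.01 without +/+ mouse 11 (-0.10 to 0.24 on leaving out 1 tumour); Atf3 turned to 0.05 without mouse 40 and 0.02 without mouse 517 (-0.72 to 0.05). The cause was not tested. The median correlation of the members stayed between 0.02 and 0.29 under 22 alternatives. Other scaling moved the median of all genes to between -0.06 and 0.02, and the share lower in +/L to between 48.7% and 55.8%. No paired analysis was possible because the mouse numbers are not shared between genotypes. With 5 tumours a group, changes of 1 on the log2 scale were mostly missed in simulated data, and Fosb was well above background on 9 of 10 arrays.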
